A study of Homo sapiens with 6 samples.

Results

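The genes described here are 57 genes of DNA replication and mitosis, given as a list of 29 genes of S phase and 28 genes of G2 and mitosis (G2/M). They were found by symbol among 56638 gene names in a table of raw RNA sequencing counts from HL60 cells, a line from a human acute myeloid leukaemia usually described as promyelocyte-like. All 57 had enough counts to be among the 16340 genes tested. The design compared HL60 cells in which SKI had been knocked out with CRISPR/Cas9 against HL60 cells with a CRISPR/Cas9 control, with 3 libraries in each group. SKI encodes a co-repressor of SMAD proteins. The control libraries carry the line number 1 and the knockout libraries the line number 3, so each group held 1 line and line and knockout cannot be told apart. All cells were grown in medium with 10% serum. The labels name no synchronisation and no drug. Whether replicates came from separate cultures is not stated, and every p-value here therefore reflects library-to-library spread only, part or all of which may be technical.

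Before a cell divides it copies its DNA in S phase and separates the copies in mitosis. In G1 the MCM2 to MCM7 helicase is loaded at replication origins by CDC6 and CDT1. In S phase it is activated by CDC45 and the GINS complex. Polymerases, the sliding clamp PCNA and DNA ligase then work at the fork. Genes of this first wave are commonly driven by E2F transcription factors. A later wave, commonly controlled through the MuvB complex with B-MYB and FOXM1, supplies cyclin B, the Aurora and Polo kinases, the kinetochore and the spindle motors. Both waves are widely used as a readout of how many cells of a culture are in each phase. In RNA from a whole culture, fewer cells in a phase and less RNA per cell in that phase cannot be told apart.

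Library totals ran from 47930276 to 58553247 counts, and levels are given as CPM (counts scaled to a common total) of a library size scaled by TMM, edgeR's factor for RNA composition. SKI mRNA stood at 63.9, 83.5 and 88.5 CPM in the control and at 59.6, 40.7 and 42.0 CPM in the knockout (log2 -0.73, adjusted p = 0.0282). Of 6 promyelocyte markers, MPO was abundant and made up most of the summed level. That sum was 11888 to 14245 CPM in the control and 2715 to 8705 CPM in the knockout. MPO, PRTN3, AZU1, CTSG and CD33 were each lower in the knockout at an edgeR adjusted p under 0.05. Their log2 fold changes were -1.39, -4.18, -2.63, -0.89 and -0.57. ELANE, which defines the same stage, was at 0.0679 CPM or less in every control library. Summed markers of T cells, erythroid cells and fibroblasts were below 1 CPM in every library, those of B cells between 0.941 and 5.89 CPM, and those of epithelium between 2.85 and 9.89 CPM. HBA1, ALAS2, MS4A1 and COL3A1 were at 0 in all libraries. The part of the promyelocyte marker difference in the results below was not tested.

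The promoters of the genes are shown first, because they carry the sequence elements by which the S phase and G2/M waves are usually told apart. RefSeq promoter sequences (GRCh38.p14, 250 bases before to 50 after a start site) were matched by symbol to 26 S phase and 23 G2/M genes. MCM4, MCM5, CCNE2, AURKA, TPX2, UBE2C, BIRC5 and TTK were not matched. The sequences below are the 150 bases before the first listed start, 5′ to 3′ on the strand of the gene, and capitals mark motif matches. E2F1 (chr20:33686386-33686535, minus strand), LIG1 (chr19:48170345-48170494, minus strand) and UHRF1 (chr19:4909351-4909500, plus strand) are S phase genes whose capitals show E2F motifs and, in E2F1 and UHRF1, CCAAT boxes. PLK1 (chr16:23678739-23678888, plus strand) and CCNB2 (chr15:59104996-59105145, plus strand) are G2/M genes with a CHR (cell cycle genes homology region) element and CCAAT boxes. KIF2C (chr1:44739687-44739836, plus strand) is a G2/M gene that passed the test below and whose window held no match.
E2F1: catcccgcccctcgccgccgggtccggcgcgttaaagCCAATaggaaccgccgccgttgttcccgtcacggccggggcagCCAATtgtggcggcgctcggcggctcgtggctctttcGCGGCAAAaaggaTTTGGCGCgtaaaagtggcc
LIG1: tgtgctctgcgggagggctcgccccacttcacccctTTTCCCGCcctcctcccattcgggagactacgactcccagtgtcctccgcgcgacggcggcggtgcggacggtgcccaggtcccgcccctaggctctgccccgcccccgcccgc
UHRF1: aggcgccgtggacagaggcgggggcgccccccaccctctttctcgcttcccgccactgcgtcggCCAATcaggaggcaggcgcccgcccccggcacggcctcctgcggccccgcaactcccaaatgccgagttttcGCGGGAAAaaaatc
PLK1: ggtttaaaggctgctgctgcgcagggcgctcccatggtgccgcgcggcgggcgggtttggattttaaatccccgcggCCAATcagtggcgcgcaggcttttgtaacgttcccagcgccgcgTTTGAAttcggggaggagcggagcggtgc
CCNB2: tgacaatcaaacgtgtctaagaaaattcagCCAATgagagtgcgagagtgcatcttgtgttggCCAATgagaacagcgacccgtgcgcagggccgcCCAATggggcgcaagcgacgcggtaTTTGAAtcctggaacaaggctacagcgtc
KIF2C: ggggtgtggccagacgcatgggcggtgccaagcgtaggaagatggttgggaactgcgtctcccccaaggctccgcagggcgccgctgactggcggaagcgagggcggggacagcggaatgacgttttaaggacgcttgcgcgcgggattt

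The E2F motif, searched as TTTGGCGC, TTTCCCGC, TTTCGCGC or TTTGCCGC on both strands, was found at 17 of 26 S phase genes (65.4%), 2 of 23 G2/M genes (8.70%) and 3.99% of all 27305 genes in the table. The G2/M genes with it were CDK1 and CENPA. The CHR, searched as TTTGAA or TTCGAA on both strands, was found at 2 of 26 S phase genes (7.69%), MCM6 and RRM1, at 16 of 23 G2/M genes (69.6%) and at 19.5% of all genes. The shares of these motifs thus differed between the lists in opposite directions. The CCAAT box (CCAAT, both strands) was frequent in both, at 61.5% of S phase and 69.6% of G2/M genes against 39.7% of all genes. CHR and CCAAT together were at 12 of 23 G2/M genes (52.2%) and 7.85% of all genes. A gene was counted when any of its listed starts held the motif, and motifs may overlap one another. Base composition differed too, with a mean GC content of 67.2% in S phase windows, 60.7% in G2/M windows and 57.5% in all windows. The median distance of the match from the start was -39 bases for E2F in S phase genes and -28 bases for the CHR in G2/M genes. A match describes the sequence and does not show that a factor binds there.

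Levels of different genes were compared in the control libraries as CPM per kilobase of the deposited gene length. PCNA led the S phase list at 190 ± 33.7 CPM per kb (SD, n = 3), followed by TYMS at 156 ± 23.8 and MCM7 at 143 ± 1.2. PCNA and TYMS did not differ beyond their spread, and the TYMS value overlapped that of MCM7 likewise. The lowest S phase gene was CCNE2, one of the E-type cyclins that start S phase, at 0.764 ± 0.083 CPM per kb (SD, n = 3), and MCM10 was next at 5.35. CDC20 led the G2/M list at 65.1 ± 5.76 CPM per kb (SD, n = 3), ahead of TOP2A at 47.4 ± 1.52 and KIF2C at 47.1 ± 3.26, which did not differ beyond their spread. The lowest G2/M genes were ANLN at 3.53 and CENPE at 3.64 CPM per kb. Although the MCM2 to MCM7 proteins form a ring of equal parts, their mRNAs per kb ran from 38.2 for MCM4 and 54.3 for MCM5 to 134 for MCM3 and 143 for MCM7. The deposited length is a single value for each gene and does not follow the isoform that is expressed.

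**Figure D1:**
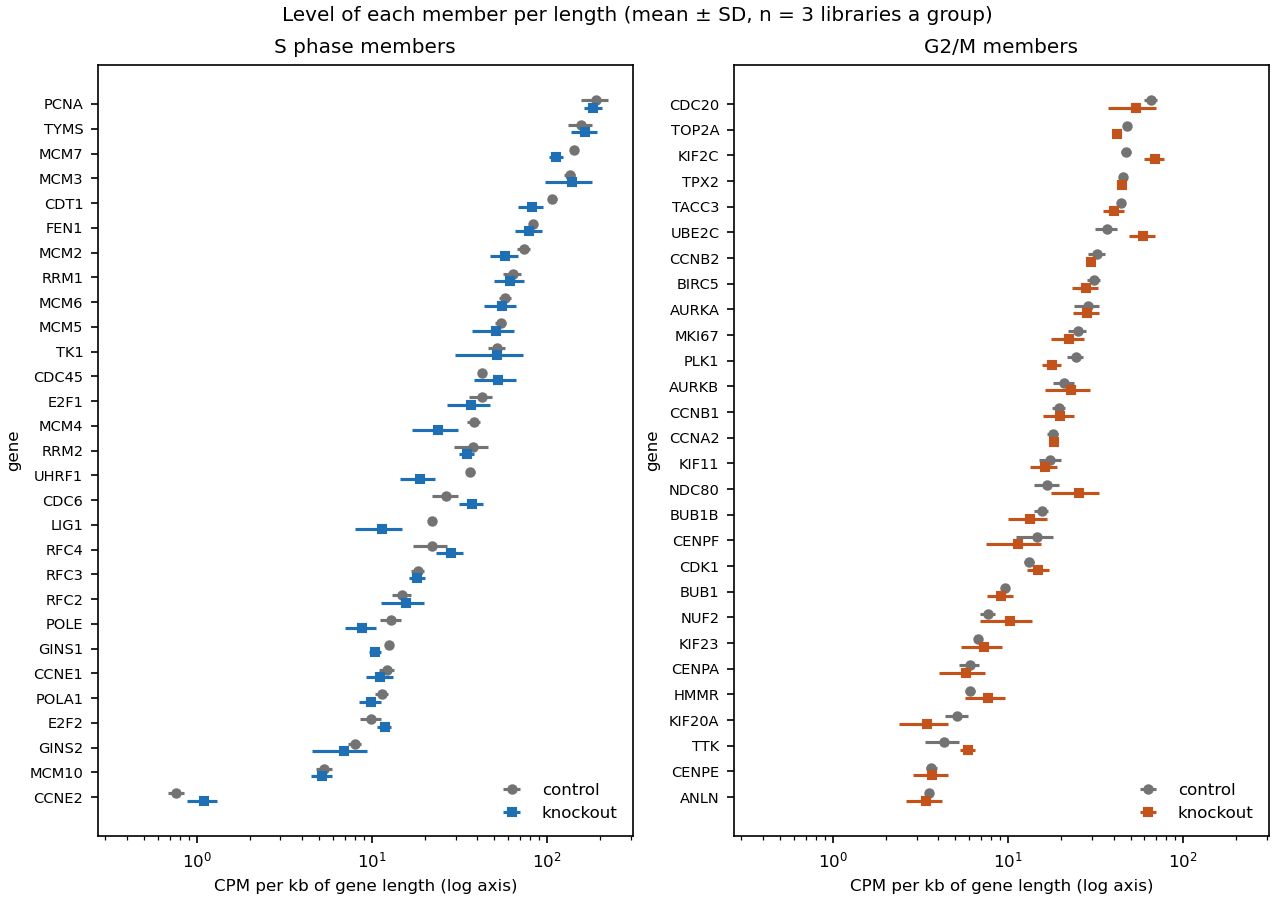
Control and knockout levels of the 57 genes in CPM per kilobase of deposited gene length on a log axis, S phase and G2/M genes in separate panels and sorted by the control mean, with points for group means and bars for the SD over 3 libraries. PCNA, at 190 in the control, and CCNE2, at 0.764, bound the S phase genes, and most pairs of control and knockout points lie close together.

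The design asks which transcripts of HL60 cells depend on SKI, here for the genes of replication and mitosis. Of the 57 genes 53 did not pass an adjusted p of 0.05 in edgeR's quasi-likelihood test. UHRF1 and LIG1, both of S phase, fell 1.95-fold and 1.93-fold, and UBE2C and KIF2C, both of mitosis, rose 1.62-fold and 1.46-fold. The 4 called genes are 7.02% of the list, where 11.8% of all tested genes were called, 6.19% higher and 5.63% lower. By phase, 2 of 29 S phase genes fell and none rose, and 2 of 28 G2/M genes rose and none fell. At an unadjusted p under 0.05 there were 13 of 57 (22.8%), against 27.1% of all genes. The median log2 fold change was -0.07 for S phase genes, -0.03 for G2/M genes and -0.01 for all tested genes. The difference between the phase medians, -0.04, was smaller than the SD within groups of such differences taken in single libraries (0.25). That SD rests largely on knockout replicate 1, at -0.52, since the other libraries lay between -0.04 and 0.10. Log2 fold changes within 0.5 of 0 were found for 48 of 57 genes (84.2%), against 78.5% of all genes with an average log2 CPM above 2. These counts depended on single libraries, and so did the calls over all 16581 to 16874 genes tested in those fits. All calls numbered 1360, 932 and 740 without control replicates 1, 2 and 3, against 1932 in the main fit. They numbered 1025, 2488 and 2253 without knockout replicates 1, 2 and 3. S phase calls numbered 1 without control replicate 2 or 3 and 4 without knockout replicate 2 or 3. G2/M calls numbered 0 without control replicate 2 or 3 (5 and 3 at an unadjusted p under 0.05), 1 without control replicate 1 (UBE2C, higher), 1 without knockout replicate 1 (KIF20A, lower) and 4, all higher, without knockout replicate 2.

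**Figure D2:**
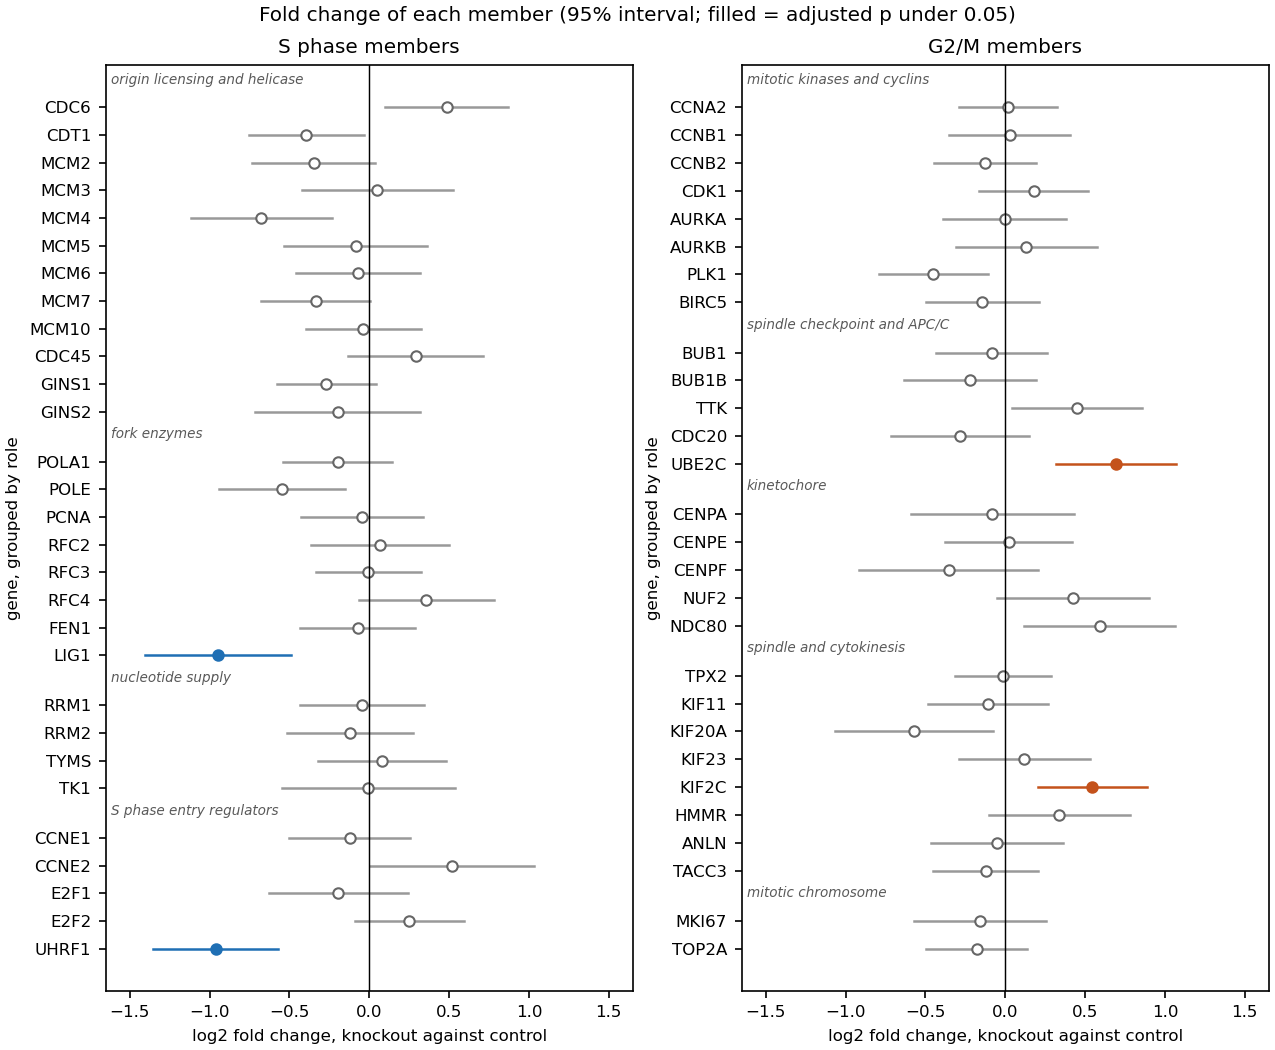
Log2 fold change of knockout against control for each of the 57 genes, grouped by role, with 95% intervals from the edgeR fit. The 4 genes that passed are UHRF1 at -0.96, LIG1 at -0.95, UBE2C at 0.69 and KIF2C at 0.55, and most of the others have intervals that include 0.

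Among the 12 genes of origin licensing and the helicase the median log2 fold change was -0.14, and none passed in edgeR. An unadjusted p under 0.05 was found for 3 of the 12 (25%), against 27.1% of all tested genes. DESeq2 and limma-voom each called 1 of them, MCM4. MCM4, a subunit of the helicase ring, stood at 245, 285 and 251 CPM in the control and at 120, 214 and 155 CPM in the knockout. Its groups did not overlap, and its log2 fold change of -0.68 (SE 0.20) had an edgeR adjusted p of 0.0507. With the replicate number as a block it was 0.0219, although no label says that same-numbered libraries belong together. MCM7, the most abundant subunit per length, was at 619, 629 and 628 CPM in the control and at 464, 477 and 546 CPM in the knockout. All knockout values lay below the control values, but the log2 fold change of -0.34 had an adjusted p of 0.193. The loading factor gene CDT1, the ring subunit gene MCM2 and the GINS subunit gene GINS1 also had knockout values below all control values, with log2 fold changes of -0.40, -0.35 and -0.27. In the other direction, CDC6, which loads the helicase together with CDT1, was at 91.4, 105 and 73.4 CPM in the control and at 142, 131 and 104 CPM in the knockout. These groups overlapped narrowly (log2 0.48, adjusted p = 0.101). MCM3, MCM5, MCM6, MCM10, CDC45 and GINS2 lay between -0.20 and 0.29 on the log2 fold change scale, with overlapping groups.

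Of the 8 fork enzymes 1 fell (12.5% called, against 11.8% of all tested genes) and 7 did not pass. The median log2 fold change of the 8 was -0.06. LIG1, the ligase that joins Okazaki fragments, was at 137, 149 and 147 CPM in the control and at 49.1, 88.5 and 87.4 CPM in the knockout. Every knockout library lay below every control library, and the lowest value was that of knockout replicate 1. On the log2 scale LIG1 fell by 0.95 (SE 0.21, adjusted p = 0.0136), and the adjusted p was 0.0523 without control replicate 2 and 0.0650 without control replicate 3. POLE, the catalytic subunit of the leading strand polymerase, was at 181, 234 and 224 CPM in the control and at 128, 180 and 130 CPM in the knockout. Its groups did not overlap, though only by a small margin, and the log2 fold change of -0.55 did not pass (adjusted p = 0.0707). PCNA, the clamp that holds polymerases on DNA, was at 273, 332 and 233 CPM in the control and at 235, 292 and 284 CPM in the knockout. Its groups overlapped throughout, with a log2 fold change of -0.05 (95% interval -0.43 to 0.33). POLA1, which starts each new strand, the clamp loader genes RFC2, RFC3 and RFC4 and the flap nuclease gene FEN1 ranged from -0.20 to 0.36 on the log2 fold change scale.

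Among the 4 genes of nucleotide supply none passed edgeR, DESeq2 or limma-voom. None had an unadjusted p under 0.05, against 27.1% of all tested genes. TYMS, thymidylate synthase, was at 381, 445 and 328 CPM in the control and at 329, 452 and 439 CPM in the knockout. Those ranges coincided, with a log2 fold change of 0.08 (adjusted p = 0.819). RRM1 and RRM2, the ribonucleotide reductase subunits, had log2 fold changes of -0.05 and -0.12. TK1, thymidine kinase, averaged 95.8 CPM in the control and 95.4 CPM in the knockout, with single knockout values from 63.3 to 141 CPM.

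Of the 5 genes listed under S phase entry 1 fell, UHRF1, and none of the cyclin E and E2F genes passed. The share called was 20%, against 11.8% of all tested genes. UHRF1, which brings maintenance methylation to newly copied DNA, was at 176, 196 and 190 CPM in the control and at 73.3, 117 and 98.3 CPM in the knockout. The groups did not overlap, the p was the smallest among the 57 genes, and the log2 fold change of -0.96 (SE 0.18) had an adjusted p of 0.00623. The call was kept when each of the 6 libraries was left out in turn, and lost when genes were centred on their chromosome (log2 -0.48, adjusted p = 0.123). CCNE2 was at 3.41, 3.70 and 2.98 CPM in the control and at 4.63, 3.99 and 5.81 CPM in the knockout, a low level throughout. Its groups did not overlap, and the log2 fold change of 0.52 had an adjusted p of 0.182. CCNE1, E2F1 and E2F2 had log2 fold changes of -0.12, -0.19 and 0.25 with overlapping groups.

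None of the 8 mitotic kinase and cyclin genes passed in edgeR, DESeq2 or limma-voom, and their median log2 fold change was 0.01. An unadjusted p under 0.05 was found for 1 (12.5%), against 27.1% of all tested genes. That 1 gene was PLK1, the Polo kinase of mitotic entry, at 112, 130 and 105 CPM in the control and 96.9, 78.8 and 78.0 CPM in the knockout. The knockout values lay below the control values, and the log2 fold change of -0.45 had an adjusted p of 0.0836. CCNB1 and CDK1, the cyclin and kinase that together drive mitotic entry, had log2 fold changes of 0.03 (95% interval -0.35 to 0.41) and 0.18 (-0.16 to 0.52). CCNA2, CCNB2, AURKA, AURKB and the Aurora B partner BIRC5 lay between -0.14 and 0.13.

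Of the 5 genes of the spindle checkpoint and the anaphase-promoting complex 1 rose (20% called, against 11.8% of all tested genes). UBE2C, the ubiquitin-conjugating enzyme of that complex, was at 68.7, 59.7 and 51.5 CPM in the control and at 99.4, 79.6 and 112 CPM in the knockout. The groups did not overlap, at 0.69 on the log2 scale (SE 0.17, adjusted p = 0.0229). The call was lost without control replicate 2 (adjusted p = 0.0941), control replicate 3 (0.125) or knockout replicate 1 (0.0741). CDC20, which activates the same complex, was at 146, 126 and 125 CPM in the control and at 147, 90.03 and 89.97 CPM in the knockout. Knockout replicate 1 was as high as the highest control library and the others were lower, so the groups overlapped (log2 -0.28, adjusted p = 0.393). The checkpoint kinase genes TTK, BUB1 and BUB1B had log2 fold changes of 0.45, -0.08 and -0.22, and for TTK every knockout library was above every control library (adjusted p = 0.141).

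The 5 kinetochore genes gave no call in edgeR, DESeq2 or limma-voom, with a median log2 fold change of 0.02. An unadjusted p under 0.05 was found for 1 (20%), against 27.1% of all tested genes. NDC80, part of the complex that binds spindle microtubules, was at 67.2, 64.6 and 49.4 CPM in the control and at 87.5, 64.8 and 120.5 CPM in the knockout. Only knockout replicate 2 fell inside the control range, and the log2 fold change of 0.59 had an adjusted p of 0.102. NUF2, the partner of NDC80 in that complex, gave 0.42 on the log2 scale and an adjusted p of 0.241. CENPF, CENPA and CENPE were at -0.35, -0.08 and 0.02 on the log2 fold change scale.

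Among the 8 genes of the spindle and cytokinesis 1 rose (12.5% called, against 11.8% of all tested genes). KIF2C, a kinesin that removes tubulin from microtubule ends, was at 183, 159 and 175 CPM in the control and at 246, 222 and 287 CPM in the knockout. The groups lay well apart, at 0.55 on the log2 scale (SE 0.16, adjusted p = 0.0424). That adjusted p is close to the threshold and was between 0.0802 and 0.195 without control replicate 1, 2 or 3 or without knockout replicate 1, and 0.0567 with the replicate number as a block. KIF20A, a kinesin of cytokinesis, was at 23.7, 17.7 and 19.6 CPM in the control and at 18.5, 10.7 and 11.7 CPM in the knockout. Its groups overlapped through knockout replicate 1, with a log2 fold change of -0.57 and an adjusted p of 0.126. With the replicate number as a block, a pairing that no label states, the adjusted p was 0.0498. Without knockout replicate 1 KIF20A was lower and passed (log2 -0.84, adjusted p = 0.0433). TPX2, TACC3, KIF11, KIF23, HMMR and ANLN, which build the spindle or the cleavage furrow, lay between -0.12 and 0.34. For the 2 mitotic chromosome genes, TOP2A was at 294, 313 and 309 CPM in the control and at 255, 286 and 268 CPM in the knockout. TOP2A, topoisomerase II alpha, had groups that did not overlap, a log2 fold change of -0.18 and an adjusted p of 0.464. MKI67, which encodes the proliferation marker Ki-67, had a log2 fold change of -0.16.

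Groups did not overlap for 14 of the 57 genes, 4 higher and 10 lower in the knockout. Over all tested genes the groups did not overlap for 32.2%, with 16.0% higher and 16.1% lower. Among S phase genes 8 were lower without overlap (CDT1, MCM2, MCM4, MCM7, GINS1, POLE, LIG1 and UHRF1) and 1 was higher (CCNE2). Among G2/M genes 2 were lower (PLK1 and TOP2A) and 3 were higher (TTK, UBE2C and KIF2C).

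**Figure D3:**
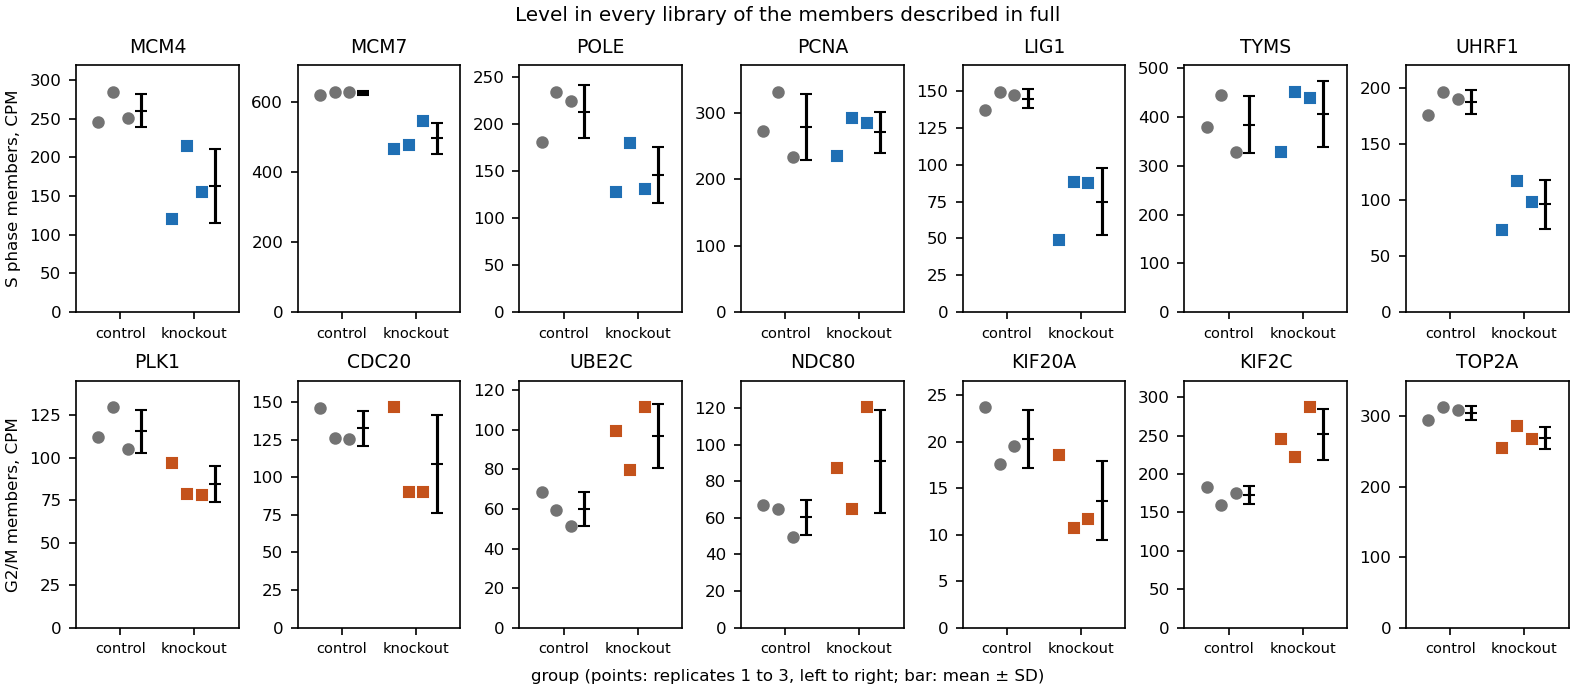
CPM in each library for the genes described by library, 1 panel a gene with its axis starting at 0, with points for libraries and horizontal bars with error bars for the mean and SD (n = 3 per group). UHRF1 runs from 176 to 196 CPM in the control and from 73.3 to 117 CPM in the knockout, while the ranges of PCNA and TYMS overlap.

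The contrast between the phases differed from library to library in the knockout. Each gene was expressed as log2 CPM minus its control mean, and the median was taken over each phase. S phase medians were -0.02, 0.12 and -0.07 in the control libraries and -0.41, 0.01 and 0.09 in the knockout libraries. G2/M medians were 0.02, 0.05 and -0.09 in the control libraries and 0.11, -0.09 and 0.02 in the knockout libraries. Knockout replicate 1 stood apart in S phase genes alone among these 2 lists, while the median of all tested genes was within 0.013 of 0 in every library. The S phase minus G2/M difference was -0.52 in knockout replicate 1, 0.10 and 0.07 in the other knockout libraries, and between -0.04 and 0.07 in the control. Summed over the 29 S phase genes, the level was 5295, 5926 and 5160 CPM in the control and 3967, 5327 and 5294 CPM in the knockout. Summed over the 28 G2/M genes, it was 2575, 2708 and 2443 CPM in the control and 2677, 2426 and 2514 CPM in the knockout. Without knockout replicate 1 the median log2 fold change of S phase genes was 0.06 in place of -0.07, and the difference between the phases was 0.14 in place of -0.04.

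**Figure D4:**
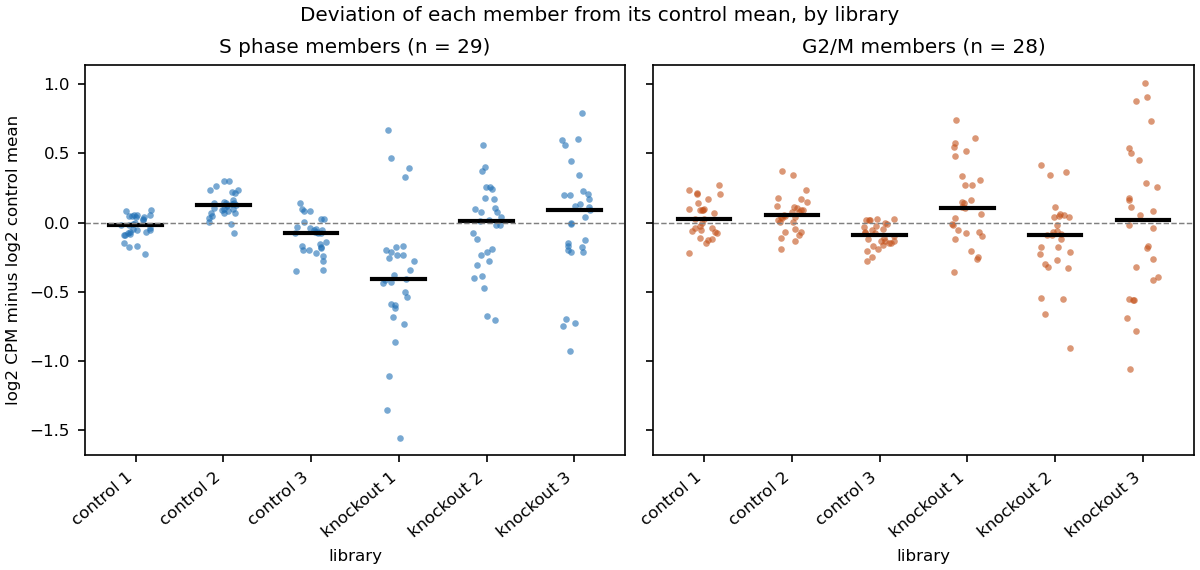
Log2 CPM of each gene minus its control mean, by library, for S phase and G2/M genes, with points for genes and bars for medians. The S phase median of knockout replicate 1 is -0.41, and the other medians lie between -0.09 and 0.12.

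Knockout replicate 1 held the lowest of the 6 values for 21 of 29 S phase genes (72.4%), against 17.2% of all tested genes and 2 of 28 G2/M genes. The low values ran through every role of the S phase list. They covered 10 of 12 licensing and helicase genes, 6 of 8 fork enzymes, 2 of 4 nucleotide genes and 3 of 5 genes listed under S phase entry. CDC6, RFC4, E2F2 and CCNE2 were the S phase genes above their control mean in that library, and CDC6 was at its highest of all 6 libraries there. Among G2/M genes the same library was highest of 6 for 8 of 28 (28.6%), against 17.6% of all tested genes. LIG1 and UHRF1 were lowest in this library, but their other knockout values were also below all control values. Knockout replicate 1 had 50760941 counts and a mitochondrial share of 2.68%, where the libraries ranged from 2.28% to 2.68%. Its 10 most abundant genes held 7.13% of counts, where the libraries ranged from 7.13% to 8.70%, and the part of either share in this pattern was not tested.

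Knockout replicate 3 held the highest of the 6 values for 8 of 28 G2/M genes (28.6%), among them NDC80, NUF2, AURKB, KIF2C and UBE2C, and the lowest for 9 (32.1%), among them CENPF, BUB1B, BUB1, MKI67 and ANLN. Over all tested genes that library was highest for 26.4% and lowest for 28.0%, so these shares are near the background of the library. Knockout replicate 2 was also lowest for 9 of 28 G2/M genes, against 13.1% of all genes. CENPF was at 79.9 CPM in knockout replicate 3 and at 160 CPM in knockout replicate 2, against 141 to 216 CPM in the control libraries. Within the knockout the median SD of log2 values was 0.27 for S phase and 0.28 for G2/M genes, against 0.13 for each phase in the control. Knockout libraries also differed more from one another over all genes with at least 100 counts. Of those genes 70.9% to 79.8% differed beyond counting noise between 2 knockout libraries, and 63.4% to 66.8% between 2 control libraries. Gene length moved with the values. In knockout replicate 3 the 19 shortest of the 57 genes (1471 to 3336 bases) had a median of 0.18 relative to the control mean and the 19 longest (4760 to 16605 bases) one of -0.32. Spearman's rho between length and deviation over the 57 genes, which share libraries and are no replicates, was -0.55 there, -0.15 and -0.05 in knockout replicates 1 and 2, and -0.64, 0.16 and 0.51 in the control libraries. Over 10568 genes with an average log2 CPM above 2 it was 0.08, 0.02 and -0.30 in the knockout libraries and -0.41, 0.11 and 0.28 in the control libraries, so the trend was not particular to the list. With the length trend of each library removed, the same 4 genes passed the test, where 2240 of all 16340 tested genes passed.

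Chromosome of origin also moved with the calls. LIG1 and UHRF1 both lie on chromosome 19, where the median log2 fold change of 665 genes was -0.48 and 85.7% of genes were lower in the knockout. Relative to that median LIG1 was at -0.47 and UHRF1 at -0.48, whereas CCNE1, the other gene of the list on chromosome 19, was at 0.36. With each gene centred on its chromosome, LIG1 had an adjusted p of 0.169, and neither it nor UHRF1 passed. MCM3 and TTK lie on chromosome 6, where the median over 498 genes was 0.42. Relative to that median MCM3 was at -0.37 and TTK at 0.03. KIF2C on chromosome 1 and UBE2C on chromosome 20 lie on chromosomes with medians of 0.00 and -0.01. After centring UBE2C kept its call (log2 0.71, adjusted p = 0.0288) and KIF2C missed it narrowly (0.53, 0.0628), so that 1 of the 57 genes passed. Over all tested genes 1388 passed after centring, against 1932, and 59.5% of calls were higher in place of 52.4%.

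**Figure D5:**
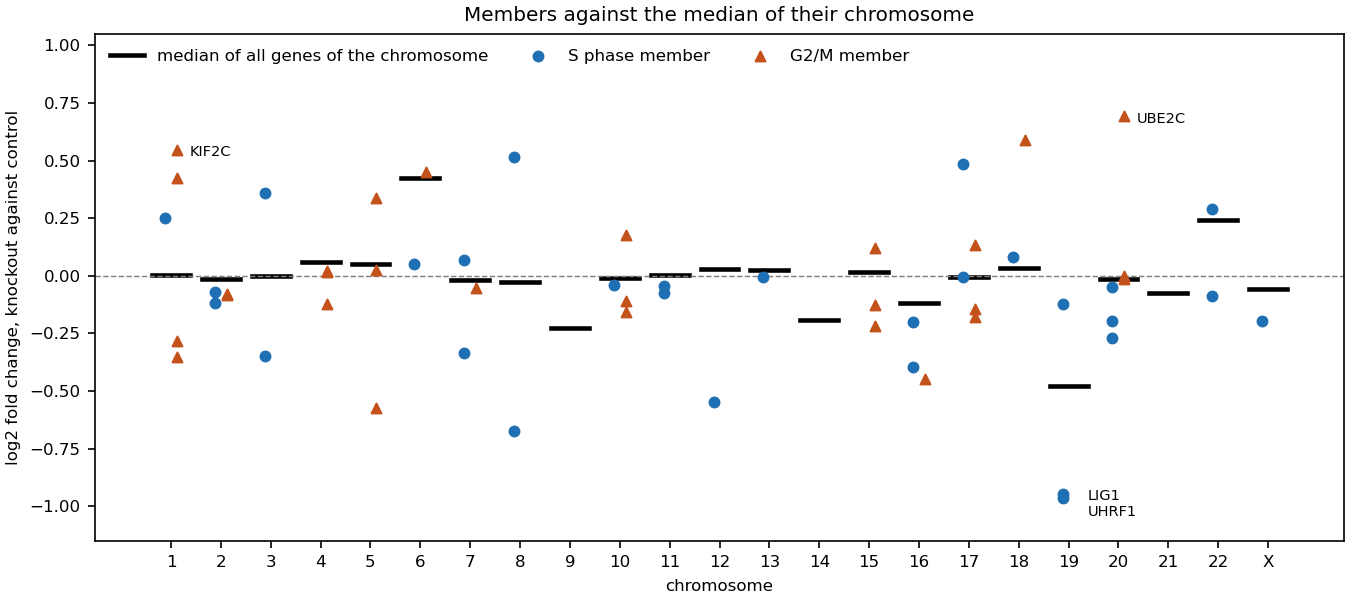
Median log2 fold change of the genes of each chromosome (average log2 CPM above 2), with the genes of the list as points on their own chromosome. Chromosome 19, at -0.48, and chromosome 6, at 0.42, have the medians farthest from 0, and LIG1 and UHRF1 lie below the median of chromosome 19.

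Another 149 genes of the same processes lie outside the list, and all were tested. Of these 3 rose and 3 fell (4.03% called, against 11.8% of all tested genes), 143 did not pass, and the median log2 fold change was 0.00. Among 20 other genes of licensing, firing and fork protection 1 fell (5% called). WDHD1, an adaptor between helicase and polymerase, was at 51.3, 56.1 and 56.4 CPM in the control and 33.6, 38.04 and 35.8 CPM in the knockout (log2 -0.61, adjusted p = 0.0175), with no overlap of groups. Among 20 other polymerase and chromatin assembly genes 2 fell (10% called). POLD1, the catalytic subunit of the lagging strand polymerase, was at 216, 260 and 261 CPM in the control and 110, 130 and 163 CPM in the knockout (log2 -0.87, adjusted p = 0.00881). CHAF1A, which places histones on new DNA, was at 150, 189 and 155 CPM in the control and 81.1, 107 and 123 CPM in the knockout (log2 -0.67, adjusted p = 0.0347). Both lie on chromosome 19, as LIG1 and UHRF1 do, and with chromosome centring they were at -0.41 (adjusted p = 0.143) and -0.20 (0.518). The 8 other nucleotide genes gave no call in edgeR, DESeq2 or limma-voom. Of these 3 (37.5%) had an unadjusted p under 0.05, against 27.1% of all tested genes.

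Of 15 cell cycle transcription genes 1 rose (6.67% called, against 11.8% of all tested genes). This was LIN54, the DNA-binding subunit of MuvB that recognises the CHR. It was at 12.6, 11.4 and 12.3 CPM in the control and at 21.4, 15.98 and 17.95 CPM in the knockout (log2 0.60, adjusted p = 0.0447), with no overlap. Of 27 other kinetochore and centromere genes 2 rose in edgeR, MIS12 and CENPQ (7.41% called, against 11.8% of all tested genes). DESeq2 called 5 of the 27, where it called 2586 of 18381 over all genes. By limma-voom 0 of the 27 were called (adjusted p = 0.0508 for MIS12 and 0.0529 for CENPQ), where it called 1887 of 16340. MIS12 was at 16.2, 17.9 and 15.01 CPM in the control and at 29.6, 22.9 and 22.05 CPM in the knockout (log2 0.60, adjusted p = 0.0454). CENPQ was at 8.91, 9.01 and 8.52 CPM in the control and at 13.0, 12.2 and 21.8 CPM in the knockout (log2 0.83, adjusted p = 0.0376). Both had every knockout library above every control library, and CENPQ lies on chromosome 6. Chromosome centring left none of these 6 genes below the threshold, with LIN54 at 0.0706, MIS12 at 0.0592, WDHD1 at 0.0845 and CENPQ at 0.326. It brought in 3 others of the 149, named after their values were seen, which were ASF1B (log2 0.56, adjusted p = 0.0463), LIN52 (0.65, 0.0459) and CENPN (0.68, 0.0429). Of 20 other genes of mitotic entry and exit, 22 of spindle motors and cytokinesis and 17 of cohesin and condensin, none passed in edgeR, DESeq2 or limma-voom. At an unadjusted p under 0.05 these lists had 4, 3 and 0 genes (20%, 13.6% and 0%), against 27.1% of all tested genes.

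The authors' deposited table, which comes from their own test, has 5 of the 57 genes (8.77%) with an adjusted p under 0.05, against 11.9% of its 21935 genes. In the authors' deposited table these are UHRF1 (log2 -0.89, adjusted p = 0.000142), LIG1 (-0.86, 0.00117), UBE2C (0.67, 0.00682), KIF2C (0.54, 0.0209) and MCM4 (-0.61, 0.0270). The 4 genes called here are among them with the same sign. Exons of 17 of the 57 genes, LIG1 and KIF2C among them, share sequence with a gene of the opposite strand, and the strand setting of the counting was not stated. Exons of 4 overlap a gene on the same strand, and 11 have pseudogenes named after them, 4 of them for UBE2C, so reads may be shared. UHRF1 has neither overlap nor named pseudogene.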

How the data were processed

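Per the labels, the 6 HL60 libraries were made from mRNA with a kit that keeps the strand. Per the submitters' processing notes, reads went through bcl2fastq, TopHat2 and featureCounts of Subread on hg19 (GRCh37), and DESeq and DESeq2 are also named. Neither versions nor annotation nor strand setting were stated. Every test used the raw counts that the authors deposited, and levels per kb used the length in the same table. The authors' other table gives a signal (counts over a size factor), in which 3357 zeros had been replaced by 1. It also gives the deposited log2 fold changes, their errors, a test score and p-values.

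Libraries were assigned to groups from their titles. edgeR's quasi-likelihood fit (edgeR 4.0.16, limma 3.58.1, R 4.3.3) had group as its only term, on the 16340 genes that filterByExpr kept and with TMM scaling. Its p-values were adjusted over these genes by Benjamini-Hochberg, at a threshold of 0.05. Standard errors come from the F statistic. Deviations from the control mean use log2 CPM with a prior count of 2. Within every group 63.4% to 79.8% of genes with at least 100 counts differed between 2 libraries beyond counting noise, so no library was a copy. Chromosomes, overlaps and pseudogenes were taken by symbol from GENCODE release 29, which is on a later build, so it gives no coordinates here. It placed 80.7% of the tested genes, and medians by chromosome rest on those whose average log2 CPM was above 2.

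The 57 genes and all lists were chosen with earlier results of these data known. Values by library are given for genes with an adjusted p under 0.05, and in each phase for the 4 smallest p-values, the 3 highest control levels per kb and the 3 largest log2 fold changes. From each other list up to 4 called genes are named. CDC6 and CCNE2 values by library, and single values of other genes, were added after they were seen. Alternatives covered scaling (library totals, size factors of DESeq2 or of the authors), filtering (none, or 3 libraries with a CPM of 1 or more), the tool (DESeq2 1.42.0 or limma-voom), a replicate block, chromosome centring, a shorter promoter window and the loss of each library. Removal of each library's gene length trend (lowess span 0.3) was added after seeing the data. The scripts were tested on simulated counts of 16340 genes with 200 changed. At the same threshold 72% of 2-fold and 100% of 4-fold changes were recovered, and 8.02% of calls were false.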

Additional observations from a re-analysis of the deposited data

How the results depend on the processing

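With single libraries left out, all genes called ranged from 740 to 2488 against 1932, with 932 when control replicate 2 was dropped, 740 for control replicate 3 and 1025 for knockout replicate 1. S phase genes called ranged from 1 to 4 and G2/M genes called from 0 to 4. The S phase median ranged from -0.17 to 0.06 and the S phase minus G2/M difference from -0.18 to 0.14. With no filter 5 of 29 S phase genes were called (CDC6 and 4 lower), where 2853 of 30025 genes were called over all. With chromosome centring 0 of 29 S phase genes (6 at an unadjusted p under 0.05) and 1 of 28 G2/M genes passed. Over all genes 1388 of 16340 passed with that centring. The cause was not tested. In the shorter promoter window, from 150 bases before to 50 after the start, 0 S phase genes (0%) held a CHR, alone or with CCAAT. In the main window 2 (7.69%) did. UHRF1 was lost with chromosome centring alone among the alternatives.

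The replicate numbers were not taken as a pairing. Deviations of same-numbered libraries correlated at -0.17, 0.42 and -0.09 across genes, and control replicate 1 correlated best with knockout replicate 3 (0.54). With the replicate block 2107 of all genes, 3 S phase genes (MCM4 added) and 2 G2/M genes (UBE2C and KIF20A) passed.

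No gene whose log2 fold change changed sign was called in the main comparison. With chromosome centring these were MCM3 at -0.39, CCNE1 at 0.35, CCNA2 at -0.018, CCNB1 at -0.0063, AURKA at 0.010 and CENPE at -0.014. With library totals these were RFC3 at 0.013, AURKA at 0.027 and TPX2 at 0.017. With the authors' size factors these were RFC3 at 0.010, TK1 at 0.013, AURKA at 0.015 and TPX2 at 0.0031. With no filter these were RFC3 at 0.018, TK1 at 0.018, AURKA at 0.025 and TPX2 at 0.012. In DESeq2's test these were RFC3 at 0.0035, TK1 at 0.0053 and AURKA at 0.0087. With DESeq2's size factors these were TK1 at 0.0024 and AURKA at 0.0045. With length trends removed (chosen after seeing the data) these were CCNA2 at -0.023 and CCNB1 at -0.017. With each library left out in turn the lowest and highest values of genes that changed sign were MCM3 -0.14 to 0.27, MCM5 -0.21 to 0.13, MCM6 -0.19 to 0.095, MCM10 -0.13 to 0.042, GINS2 -0.43 to 0.063, PCNA -0.16 to 0.095, RFC2 -0.14 to 0.26, RFC3 -0.054 to 0.086, FEN1 -0.17 to 0.075, RRM1 -0.19 to 0.061, RRM2 -0.28 to 0.041, TYMS -0.024 to 0.23, TK1 -0.38 to 0.24. The remaining such ranges were CCNE1 -0.22 to 0.020, CCNA2 -0.041 to 0.065, CCNB1 -0.078 to 0.20, AURKA -0.074 to 0.16, AURKB -0.10 to 0.31, BUB1 -0.14 to 0.070, CENPA -0.19 to 0.17, CENPE -0.15 to 0.19, TPX2 -0.040 to 0.037, KIF11 -0.25 to 0.017, KIF23 -0.092 to 0.30, ANLN -0.23 to 0.12 and MKI67 -0.24 to 0.030.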
